A study of Homo sapiens with 6 samples.

Results

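The MCM helicase genes MCM2, MCM3, MCM4, MCM5, MCM6 and MCM7 and the sliding clamp gene PCNA held 136 of the 34781 binding sites in a merged list for USP39, a protein of the spliceosome. A site was counted for a gene when its central base lay in the annotated span of the gene, on the strand that carried most of the gene's sites, and outside small RNA genes. All 7 genes had at least 9 sites. The list comes from iCLIP2, an assay in which UV light of 254 nm joins protein to RNA in living cells and the joined positions are then read by sequencing. The cells were wild-type HEK293T, an established human embryonic kidney line, and the precipitation used an anti-USP39 antibody. The series has 2 groups of 3 biological replicates, 6 samples in all, taken from a low and a high region of the blotting membrane. The single list is filed under replicate 1 of the low region; which samples were merged into it is not stated in the labels.

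Each site is 5 nt wide and has a deposited score of 0, so the list gives positions and strands and no heights. No value belongs to one sample, the depth behind a site is unknown, and no replicate error exists for any number below. Poisson and Wilson intervals (95%) are given for counting error only; neighbouring sites can come from the same RNA molecules, so the true error is larger. No test was made, and the 7 genes are described beside other protein-coding genes without a claim that they stand apart. RNA abundance was not measured and the control without irradiation that the series design names was not analysed here, so site numbers are neither per transcript nor shown to exceed background.

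MCM2 to MCM7 encode the subunits of a ring that is loaded as a double hexamer on replication origins in G1 phase and becomes the motor of the replicative helicase in S phase. MCM4, MCM6 and MCM7 form a subcomplex with helicase activity in vitro, and the ring opens between MCM2 and MCM5 to admit DNA. PCNA encodes the trimeric clamp that holds DNA polymerases and many repair and chromatin factors on DNA. All of these genes are transcribed mainly in proliferating cells, and their pre-mRNAs contain introns that the spliceosome removes. USP39 acts in the tri-snRNP, which carries the U4, U5 and U6 snRNAs into the assembling spliceosome.

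Site numbers ranged from 9 to 32 among the 7 genes. MCM7 had 32 sites (Poisson interval 21.9 to 45.2), MCM3 had 26 (17.0 to 38.1), and MCM4 and PCNA had 22 each (13.8 to 33.3). MCM5 had 14 sites (7.65 to 23.5), MCM6 had 11 (5.49 to 19.7) and MCM2 had 9 (4.12 to 17.1). MCM7, MCM3, MCM4 and PCNA together thus formed the upper part of the order, and their intervals overlapped one another. The interval of MCM5 also overlapped all of theirs, and those of MCM6 and MCM2 overlapped all but that of MCM7. By number, the intervals therefore mark no clear break between the upper and lower genes. By the same rule, 4610 of 20037 protein-coding genes (23.0%) had a site and 1010 (5.04%) had 9 or more. The cut of 9 is the fewest sites of any of the 7 genes, so all 7 pass it by construction. It serves only to give a set of genes with like numbers of sites. The median was 22 sites in the 7 genes, against 16 in the 1010 genes with 9 or more sites and 3 in the 4610 genes with a site. MCM7 had more sites than 96.4% of the genes with a site, and MCM2, the lowest of the 7, more than 78.1%. No site lay on the opposite strand within any of the 7 spans.

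Per length, the genes fell into an upper group of 4 and a lower group of 3. MCM7 had 3.69 sites per kb of gene span (Poisson interval 2.525 to 5.21), PCNA 1.89 (1.18 to 2.85), MCM4 1.28 (0.801 to 1.93) and MCM3 1.25 (0.819 to 1.84). MCM2 had 0.375 sites per kb (0.171 to 0.711), MCM6 0.299 (0.149 to 0.535) and MCM5 0.255 (0.139 to 0.428). Among neighbours in this order, only the intervals of MCM3 and MCM2 did not overlap, with a ratio of 3.35. With sites within 50 nt joined, the lowest of the upper genes was MCM4 at 1.045 per kb, and MCM2 stayed at 0.375. No intervals were computed for joined sites, so whether the 2 groups would still be clear of counting error is not known. MCM7 and MCM5, at the ends of the order, differed 14.5-fold. The place of MCM5 depends on its full annotated span, as 13 of its 14 sites lay in the first 24097 nt. Whether the rest of that span is in the curated transcript is not known here. The order in part follows the spans, which run from 8.67 kb in MCM7 and 11.7 kb in PCNA to 36.8 kb in MCM6 and 54.9 kb in MCM5. The 7 genes together had 0.782 sites per kb, against 0.508 in all 1010 genes with 9 or more sites.

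**Figure D1:**
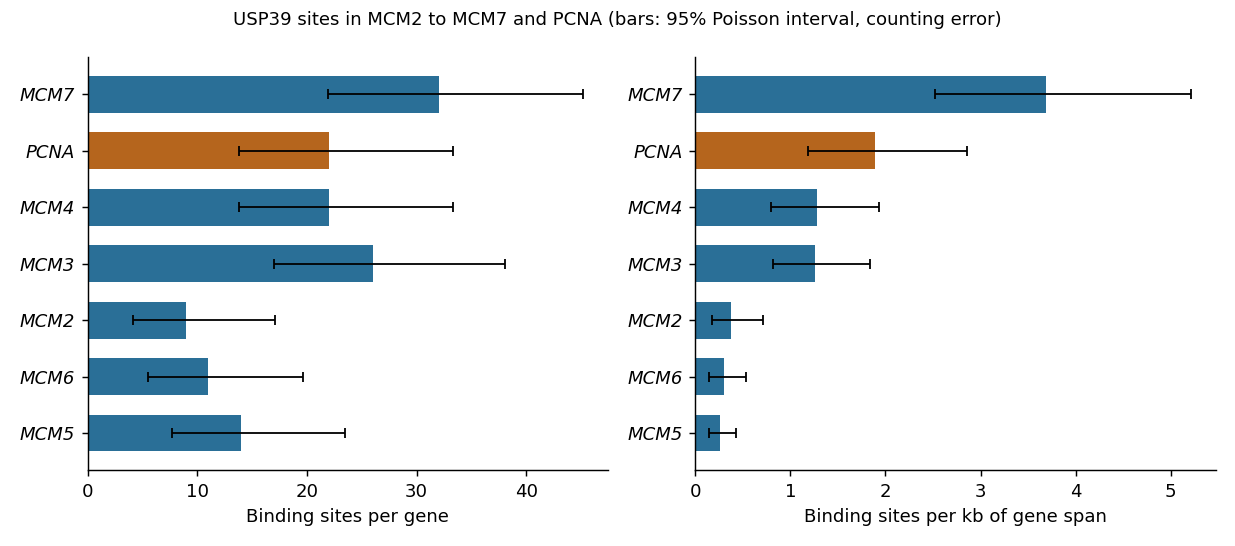
Binding sites per gene (left) and per kb of annotated gene span (right) for the 7 genes, ordered by sites per kb; bars are values from the merged list and error bars are 95% Poisson intervals for counting error. MCM7 leads both panels with 32 sites and 3.69 per kb, while MCM2, MCM6 and MCM5 lie at or under 0.375 per kb.

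PCNA showed a sharp boundary at an internal start site. Its span has 2 starts in the RefSeq promoter table (GRCh38.p14), 6664 nt apart. Of the 22 sites, 21 were centred beyond the second start and 1 straddled it, on chromosome 20 between 5115037 and 5119961, minus strand. The stretch between the starts held 0 sites apart from the 3 upstream bases of the site that straddles the second start. That site covered bases -3 to 2 counted from the second start (the start being base 1, with no base 0), 5119957 to 5119961. A pair of abutting sites lay at bases 32 to 36 and 37 to 41 (5119923 to 5119927 and 5119918 to 5119922), and 6 of the 22 sites were centred in the first 300 nt. Over the 5006 nt from the second start to the end of the gene, PCNA had 4.195 sites per kb. MCM7 had 3.69 over its full span and 4.102 over the 7802 nt from the third of its own starts. The second start was chosen after seeing the data, and no intervals were computed for these stretches, which hold 21 and 32 sites. With sites within 50 nt joined, PCNA kept 13 and MCM7 22, so no order of the 2 genes is drawn from these values. The sequence around the second start is shown because it holds 3 sites, whose bases are in capitals; the last 50 bases are transcribed, and the window is chr20:5119909-5120208, minus strand, 5′ to 3′, from RefSeq. The 50 bases that follow the first start, shown for contrast, held none.
PCNA second start: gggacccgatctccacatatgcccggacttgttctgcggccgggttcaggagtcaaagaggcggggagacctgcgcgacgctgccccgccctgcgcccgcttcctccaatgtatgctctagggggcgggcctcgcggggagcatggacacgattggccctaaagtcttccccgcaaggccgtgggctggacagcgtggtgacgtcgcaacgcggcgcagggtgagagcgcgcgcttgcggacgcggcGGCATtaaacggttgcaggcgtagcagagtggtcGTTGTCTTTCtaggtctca
PCNA first start: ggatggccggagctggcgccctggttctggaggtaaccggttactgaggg

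The abutting PCNA pair was rich in T, the base written for U in the RNA. Of its 10 bases, 6 were T, 2 were C, 2 were G and 0 were A. The straddling site was not, with 2 G and 1 each of T, C and A in its 5 bases. Across all genes, 473 sites lay whole within the first 50 transcribed bases of 376 annotated starts, and 53.8% of their bases were T, against 25.1% of all bases in those same stretches. UV light joins protein to uridine more readily than to other bases, which is known of this assay. Its part in these T shares was not tested.

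PCNA sites were crowded in 2 further places. A group of 7 had central bases from 5118780 down to 5118368, which is 7842 to 8254 nt from the 5′ end of the span. The next pair lay at 5117620 and 5117545, after which 2035 nt held 0 sites. The last 5 sites lay in the last 1000 nt, at 557, 190, 184, 163 and 86 nt from the annotated end. PCNA-AS1, an antisense lncRNA gene, overlaps 384 nt of PCNA around the second start, and 7 PCNA sites lay in the overlap, all on the strand of PCNA. A snoRNA gene annotated in the same span, LOC124900464, held 0 sites.

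MCM7, a subunit of the catalytic subcomplex, had the most sites, between 100092831 and 100100077 on chromosome 7, minus strand. Its first site lay 1322 nt from the 5′ end of the span. The promoter table gives 3 starts for MCM7, the others 643 and 868 nt further in, and the first site lay 454 nt beyond the third. No site was in the 300-base promoter window of any of the 3. Sites were densest early in the gene, with 10 of 32 (31.2%) in the 1000 nt that begin 1731 nt from the 5′ end. In that stretch 4 sites stood within 58 nt, at 2152, 2157, 2182 and 2205 nt. The largest distance between neighbouring sites was 1292 nt, from 4068 to 5360 nt, and the last 3 sites lay 212, 129 and 105 nt from the annotated end. AP4M1, a coding gene that overlaps the 5′ end of MCM7 by 604 nt, shared 0 of these sites.

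MCM7 is also the host of the microRNA genes MIR106B, MIR93 and MIR25, whose products are processed from its RNA. Its span held 1 further site, which the rule leaves out because it lies in MIR93: 100093836 to 100093840, minus strand, starting at base 8 of the 80-nt annotated hairpin. Of its 5 bases, 2 were the first bases of the mature hsa-miR-93-5p (chr7:100093815-100093837), and the other 3 preceded them, so that the site straddled the 5′ end of the mature arm. MIR106B and MIR25 held 0 sites. The main arms of the 3 microRNAs are shown with the seed (bases 2 to 8) in capitals, from RefSeq, because the site touches one of them; hsa-miR-93-5p and hsa-miR-106b-5p share a seed, and the site lay in only the first.
hsa-miR-93-5p: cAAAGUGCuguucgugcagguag
hsa-miR-106b-5p: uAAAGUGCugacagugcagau
hsa-miR-25-3p: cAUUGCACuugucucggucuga

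The overlap of 2 bases includes 1 base of that seed. The site is a single entry in the list and has no height, and whether it came from MCM7 pre-mRNA or from the released microRNA precursor was not tested.

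The other subunits of the catalytic subcomplex differed from each other in place. Sites of MCM4, on chromosome 8 between 47961006 and 47977812 (plus strand), gathered at both ends. There were 5 of 22 in the first 10% of the gene and 8 (36.4%, Wilson interval 19.7% to 57.1%) in the last 10%, the highest share among the 7 genes. In protein-coding genes with 3 or more sites, the first 10% held 10.9% of sites and the last 10% held 24.0%. The 24.0% lies inside the interval of MCM4, so its 3′ share is not set apart from that of the list. The first lay 67 nt from the 5′ end and the last pair, which abutted, 355 and 350 nt from the 3′ end. The middle was thinly covered, with 2967 nt between the sites at 9091 and 12058 nt.

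MCM6 had 11 sites on chromosome 2 between 135840868 and 135870290, minus strand, spread along the gene with a median spacing of 2744.5 nt. Its first 6155 nt held none, and its last site lay 1244 nt from the annotated end. When the span was cut into 10 equal bins, bin 3 held the most sites, 3 of 11. A pair 16 nt apart, at 10261 and 10277 nt, was the only pair within 50 nt.

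The gate subunits MCM2 and MCM5 had no 2 sites within 50 nt of each other. MCM2, whose amino-terminal part also binds histones, had 9 sites on chromosome 3 between 127599332 and 127621700, plus strand, and no 2 were closer than 122 nt. They lay at 923, 1045, 8387, 10489, 11071, 18482, 18699, 22304 and 23287 nt from the 5′ end. Stretches of over 7 kb without a site therefore separated 3 groups of sites, and the longest measured 7411 nt.

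MCM5 had 14 sites on chromosome 22 between 35400171 and 35443204, plus strand, and 6 of them (42.9%) lay in the first 10% of the span, at 33, 326, 857, 1081, 2580 and 3390 nt. The first of these was the nearest to the 5′ end of a span in any of the 7 genes. Of the 14 sites, 13 lay in the first 24097 nt and 1 beyond, after a stretch of 18965 nt with no site that makes up 34.5% of the span. The last site lay 11829 nt from the annotated end, and the last 10% held 0 sites (Wilson interval up to 21.5%). The gene table lists 1 curated and 2 predicted transcripts for MCM5 but not where each ends, so it is not known here whether the sparse 3′ part is in the curated transcript.

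MCM3, whose carboxy-terminal part docks the ring on the origin-bound loader with CDC6, had 26 sites on chromosome 6 between 52264120 and 52284688, minus strand. The largest distance between neighbouring sites was 2442 nt, or 11.8% of the span, the smallest share among the 7 genes. The first lay 56 nt from the 5′ end, just outside the 50 transcribed bases of the promoter window. A run of 3 sites stood at 2645, 2669 and 2685 nt. The last 10% held 4 sites, at 531, 410, 204 and 107 nt from the annotated end.

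**Figure D2:**
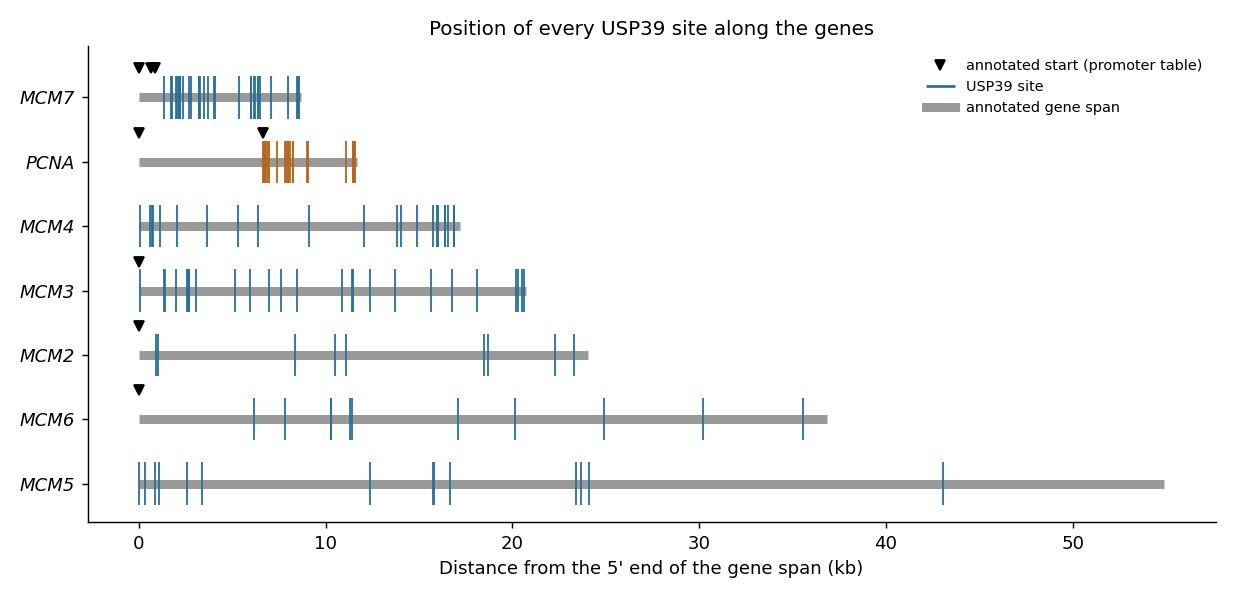
Every site of the 7 genes by its distance from the 5′ end of the gene span in kb; each vertical line is a site, grey bars are annotated spans and triangles are starts listed in the promoter table, which gives none for MCM4 and MCM5. The 22 PCNA sites begin at its second start, 6664 nt from the first, and 13 of the 14 MCM5 sites lie within 24097 nt of the 5′ end of its 54.9 kb span.

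With all 7 genes pooled, the last 10% of the span held 24 of 136 sites (17.6%, Wilson interval 12.2% to 24.9%), the most of 10 equal bins. In the 2528 protein-coding genes with 3 or more sites the last 10% held 24.0%, which lies inside that interval. Of the 7 genes, 6 had a site in the last 10%, MCM5 being the exception when counted over its full annotated span. Among the 1010 genes with 9 or more sites, 796 (78.8%) had one, a share near that of the 7. Measured in nucleotides instead, the last 1000 nt held 19 of the 136 sites (14.0%, interval 9.13% to 20.8%) and 12.6% of the sites in genes with 9 or more. These 19 came from PCNA and MCM4 with 5 each, MCM3 and MCM7 with 4 each and MCM2 with 1, and MCM5 and MCM6 had 0 there.

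At the 5′ end, the first 10% held 17 sites (12.5%, interval 7.95% to 19.1%) against 10.9% in genes with 3 or more sites. These 17 came from MCM5, MCM4, MCM3 and MCM2, while MCM6, MCM7 and PCNA had 0. The 6 from MCM5 were counted over its full annotated span, and no shorter span was tried for this gene. Within 100 nt of the 5′ end of the span, MCM3, MCM4 and MCM5 had 1 site each, so 3 of the 7 genes, against 311 of 1010 genes with 9 or more sites (30.8%). The members were thus near the background at both ends of their spans. PCNA is counted here from its first start; its straddling site at the second start is not among the 3.

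**Figure D3:**
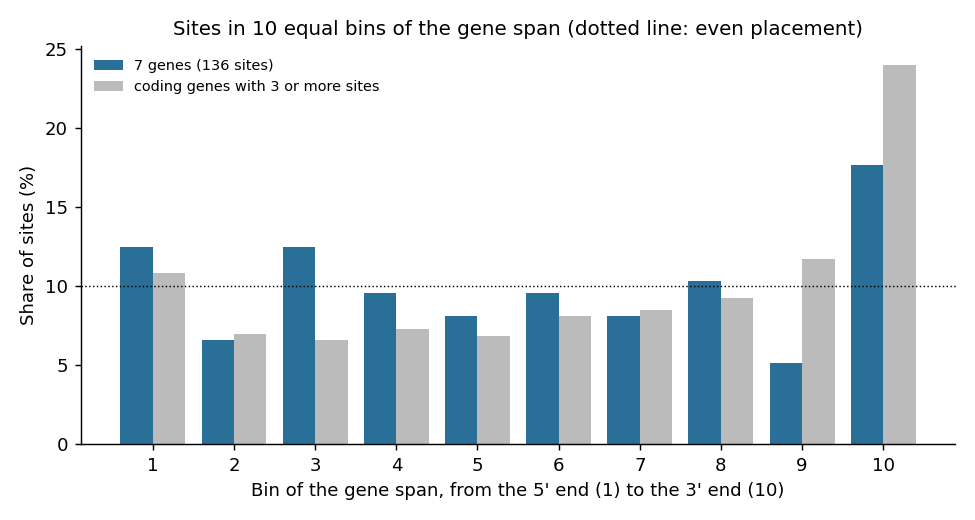
Share of sites in each of 10 equal bins of the gene span, from the 5′ end (1) to the 3′ end (10), for the 136 sites of the 7 genes (blue) and for 2528 protein-coding genes with 3 or more sites (grey); the dotted line marks even placement. Bin 10 is the highest in both, at 17.6% and 24.0%.

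The spacing of sites set PCNA and MCM7 at one end and MCM2 and MCM5 at the other. In PCNA 16 of 22 sites (72.7%, Wilson interval 51.9% to 86.9%) had another site within 50 nt, and in MCM7 18 of 32 did (56.2%, interval 39.3% to 71.8%). MCM4 had 8 of 22 (36.4%, interval from 19.7%), MCM3 5 of 26 (19.2%, from 8.51%) and MCM6 2 of 11 (18.2%, from 5.14%). MCM2 and MCM5 had 0, with intervals up to 29.9% and 21.5%. These overlap the intervals of MCM4, MCM3 and MCM6, so MCM2 and MCM5 are not set apart from those 3 genes. PCNA and MCM7 also had the shortest spans and the most sites per kb, and the part of density in this difference was not tested. Over all 136 sites the share was 36.0% (interval 28.4% to 44.4%), beside 35.4% in genes with 3 or more sites and 40.4% in those with 9 or more.

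Median spacing ran from 75.0 nt in PCNA and 131.0 nt in MCM7 to 394.0 nt in MCM4, 621.0 in MCM3, 810.0 in MCM5, 1542.5 in MCM2 and 2744.5 in MCM6. Of the 129 distances between neighbours, 27 were at most 50 nt and 4 were exactly 5 nt, which is the width of a site: 2 in MCM7 and 1 each in MCM4 and PCNA. Joining sites within 50 nt of each other left 22 in MCM7, 13 in PCNA, 18 in MCM4, 23 in MCM3, 10 in MCM6, 14 in MCM5 and 9 in MCM2. MCM3 then had the most, and the joined density of PCNA (1.11 per kb) was the same as that of MCM3 (1.11) to the digits given, while MCM7 still had the highest, 2.54.

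**Figure D4:**
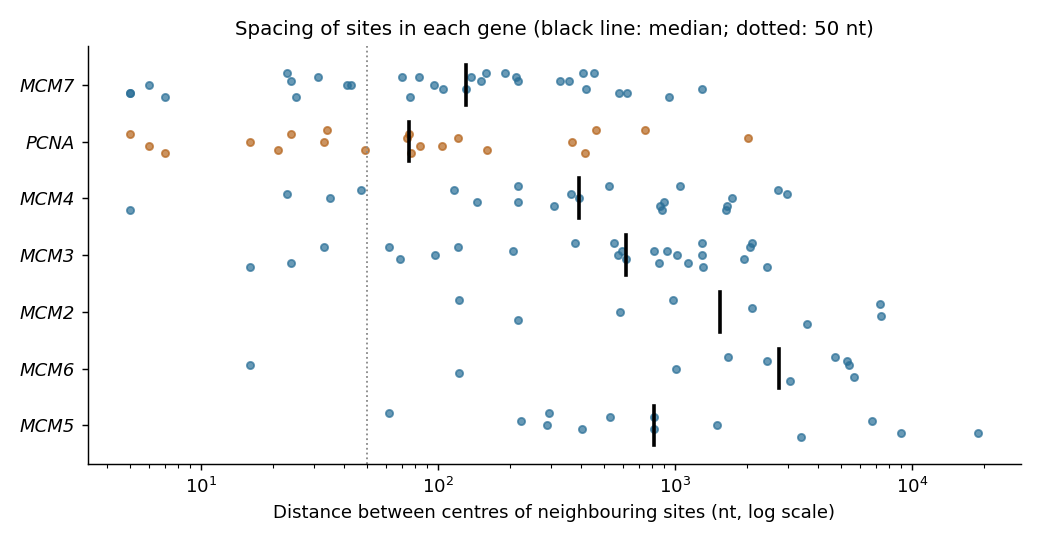
Distance between the centres of neighbouring sites in each gene (nt, log scale); each point is 1 distance, black lines are medians and the dotted line is 50 nt. PCNA and MCM7 have medians of 75.0 and 131.0 nt, and no distance in MCM2 or MCM5 is under 50 nt.

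Other genes of DNA replication were counted in 8 lists of 72 genes. Of these, 55 (76.4%) had a site, 41 had 3 or more and 12 had 9 or more, beside the 23.0% and 5.04% of all protein-coding genes given above for at least 1 and at least 9 sites. Of 48 with a site and an annotated strand, 2 (ORC1 and ORC4, named after their values were seen) had their single site on the strand opposite to the annotated one. Each of these sites also lay in another gene. The same held for all sites of GINS4, CHTF8 and RPA1, likewise named after their values were seen. Such sites may not belong to the RNAs of the listed genes, but they are included in the counts. The median of the 72 genes was 3.5 sites. Only DNMT1 with 29 and RRM2 with 31 exceeded the 26 sites of MCM3, and none reached the 32 of MCM7. The lists were drawn up with earlier results of these data known, and they are described by their counts only.

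Among the genes that load and start the helicase, origin recognition and licensing genes had a site in 7 of 10, ORC1 and ORC4 included. CDT1, which brings the MCM ring to origins, led them with 11 sites, followed by MCMBP, an MCM-binding chaperone, with 5. The list of helicase partners and firing factors had a site in 10 of 13, with 20 in RECQL4, a RecQ helicase, and 11 in CDC45, which joins MCM2 to MCM7 and the GINS proteins in the active helicase. The other MCM family genes all had a site (3 of 3), MCM8 with 7 and MCMDC2 with 6. All 6 sites of MCMDC2 and 2 of those of MCM8 also lay in the span of another coding or lncRNA gene, so they may not belong to these RNAs. These lists held fewer sites per gene than the MCM2 to MCM7 group, with medians of 2.5, 3.0 and 6.0. The last of these is the count of MCMDC2 itself, so it rests on sites that also lay in another gene.

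At the fork, the replicative polymerase and primase list had a site in 7 of 12 genes, with 14 in POLE, the leading-strand polymerase, and 9 each in POLA2 and POLD1. Of the 9 in POLA2, 2 also lay in another gene. Clamp loader genes, whose products place PCNA on DNA or remove it, had a site in 6 of 9, with 13 in CHTF18 and 8 in RFC3; 11 of the 13 in CHTF18 also lay in another gene. PCNA clients and regulators had a site in 10 of 11, led by DNMT1, the maintenance DNA methyltransferase, with 29 and CHAF1A, a histone chaperone, with 7. Single-strand binding and fork protection genes had a site in 6 of 7, with 10 in TIMELESS and 7 in RPA2. Nucleotide supply genes also had a site in 6 of 7, with 31 in RRM2, a subunit of ribonucleotide reductase, and 10 in TYMS, thymidylate synthase, 7 of whose sites lay in another gene as well. Per kb of span, RECQL4 (3.05) and CDT1 (2.01) were denser than PCNA over its full span. With sites within 50 nt joined, the order of CDT1 and PCNA turned, at 1.097 (6 joined sites) and 1.114 per kb, while RECQL4 had 2.90. Unjoined, DNMT1 (0.471) and RRM2 (0.350) were near MCM2.

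**Figure D5:**
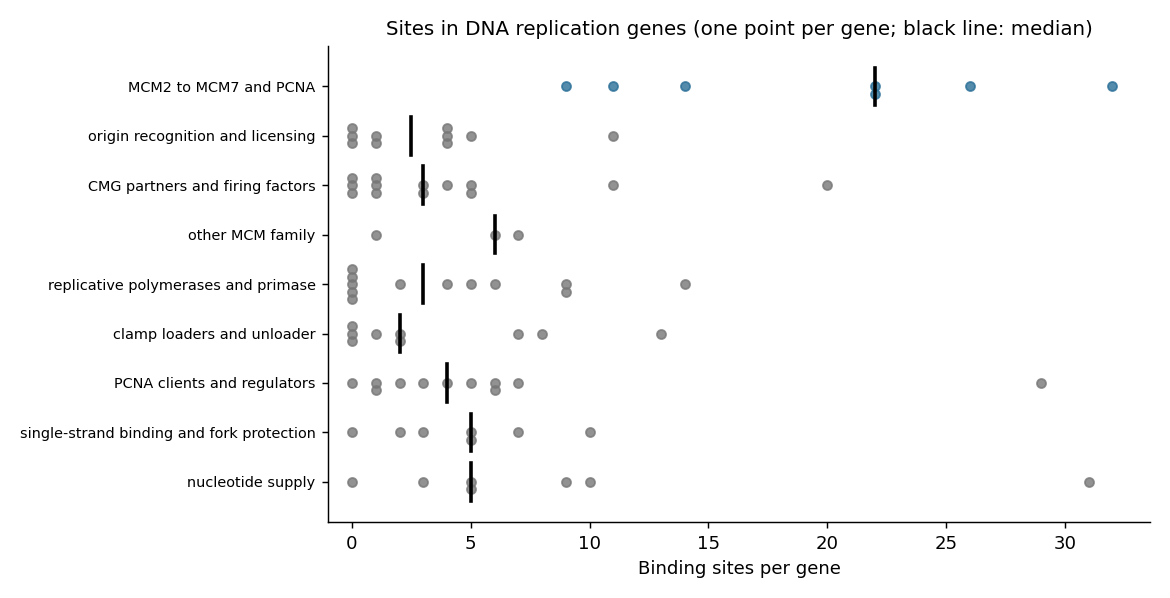
Number of sites in each gene of the MCM2 to MCM7 and PCNA group (blue) and of 8 lists of other DNA replication genes (grey), 1 point per gene, with the median of each list as a black line. The blue points run from 9 to 32 with a median of 22, and the list medians run from 2.0 to 6.0. The 6.0 is the count of MCMDC2, whose sites all lay in another gene as well.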

How the data were processed

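The authors deposited 1 BED list of merged binding sites; the score they deposited is 0 at each site. Per the submitters' processing notes, UMI-tools 1.1.2, STAR 2.7.3a, FastQC 0.11.9, bedtools 2.29.2 and SAMtools 1.10 were used with build GRCh38.p12. For the site caller and its filters, nothing is given in the sources used here. Positions are written with the first base as 1. Gene spans and promoter sequences came from RefSeq tables of GRCh38.p14; the numbering of the chromosomes is that of GRCh38 in both. The tables hold no exons, so exons, introns and untranslated regions were not separated. The same counting rule was applied to all 20037 nuclear protein-coding genes, and a site in overlapping genes could count for each. Where the promoter table gives a strand, the strand of the sites matched it in 96.5% of 2119 genes with 3 or more sites. The strand matched for MCM2, MCM3, MCM6, MCM7 and PCNA. All 72 list symbols matched. Named list genes are the 2 with the most sites in each list, ties included, apart from those said to be named after their values were seen. The members and lists were chosen with earlier results of these data known. Alternatives joined sites within 50 nt, changed windows and strands, and left out each gene in turn. Python 3.11.15 was used with scipy 1.17.1, pandas 2.3.3, numpy 2.4.6 and matplotlib 3.10.9. The counting was tested on simulated sites in genes clear of neighbouring coding genes, with all sites of a gene on the same strand. Overlapping coding genes, and genes with sites on both strands, were not covered by that test.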

Additional observations from a re-analysis of the deposited data

How the results depend on the processing

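Of 38 alternative values, 33 stayed within 1.5 times the count or within the interval of the share or density. Some of the 33 could not differ, because no site lay on the opposite strand and MCM2 and MCM5 had no sites to join. The shares in the last 5% (14.0%) and the last 20% (22.8%) are other quantities, counted among the 33 because they fell within the interval of the 10% share. The share of sites with a neighbour within 50 nt (36.0%) was 16.2% at 20 nt and 48.5% at 100 nt, and without PCNA it was 28.9%, the lowest value with 1 gene left out (highest 40.2%, without MCM5). The 0.782 sites per kb became 0.626 with sites within 50 nt joined and 0.942 over the stretch from first to last site. Sites in PCNA numbered 13 instead of 22 when joined. The share in the last 10% ran from 14.0% without MCM4 to 19.7% without MCM5, and was 17.0% with PCNA measured from its second start, chosen after seeing the data. The total of 136 sites was 109 with sites joined, and 52 of 72 list genes, instead of 55, had a site outside other coding genes. No paired analysis was possible because the merged list has no values per sample, and no replicate could be left out. Depth is unknown.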
